A study of Mus musculus with 81 samples.

Results

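The genotype effect was measured in CA3 pyramidal neurons (PNs) of trisomic Ts65Dn (Ts) mice whose dams ate a choline-supplemented diet, with disomic (2N) mice of supplemented dams as the reference. The libraries were chosen by their labels for population, genotype and maternal diet, which gave 7 Ts and 7 2N libraries, or 14 of the 81 libraries of the series. Each library held RNA of CA3 PNs cut by laser capture from Nissl-stained sections of the brain of a single mouse, so the groups are compared over mice and the p-values measure the spread between mice. All mice were male, about 6 months old, and born to Ts65Dn females mated with C57Bl/6J Eicher by C3H/HeSnJ F1 males, so that trisomic mothers raised both genotypes and alleles of both backgrounds segregate among them. The supplemented chow held 5.0 g per kg of choline chloride against 1.1 g per kg in the normal chow. The dams ate it through pregnancy and lactation, and from weaning every offspring, Ts or 2N, received the normal chow. The series also holds CA1 PNs, dentate gyrus granule cells (DGCs) and mice of normal-diet dams, which serve below only as points of comparison.

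The Ts65Dn mouse is a widely used model of Down syndrome. It carries an extra small chromosome with a distal piece of mouse chromosome 16 (Mmu16), much of which is orthologous to human chromosome 21, and a proximal piece of chromosome 17 (Mmu17), which is not. Genes on these pieces are present in 3 copies in Ts mice and in 2 copies in 2N mice. CA3 PNs receive the mossy fiber input of the dentate gyrus, excite one another through recurrent collaterals and send Schaffer collaterals to CA1, a circuit used in the encoding and recall of episodes. Choline is the precursor of acetylcholine and of phosphatidylcholine, and after oxidation to betaine it donates methyl groups, and maternal supplementation has been studied as an early treatment in this model.

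The deposited expected counts summed to 710825 (2N 15-336) to 2559182 (Ts 15-245) per library, and mitochondrial genes took 6.15 to 8.52% of them. The CA3 identity of the libraries was checked with marker genes fixed by symbol. The summed level of the 7 CA3 PN markers was 884.5 to 1066 CPM (counts scaled to a common library total) in Ts and 868.7 to 1014 CPM in 2N libraries. The 7 CA1 PN markers summed to at most 115.9 CPM and the 6 dentate granule cell markers to 25.3 to 81.7 CPM in all libraries but Ts 15-140, where they reached 153.8 CPM, with 51.9 CPM of the granule cell factor Prox1. Other cell types also left signal, with 1662 to 2618 CPM over 9 astrocyte markers, most of it the glutamate transporter Slc1a2 (a mean of 1932 CPM in Ts and 1907 CPM in 2N), 127.5 to 354.6 CPM over 9 inhibitory neuron markers, 243.0 to 517.8 CPM over 8 oligodendrocyte markers and 22.7 to 55.9 CPM over 9 microglial markers. Of the 15 marker lists, the CA3 PN list alone had an unadjusted exact permutation p under 0.05 (two-sided p = 0.0431, 0.647 after Benjamini-Hochberg adjustment), with a mean log2 CPM that was 0.092 higher in Ts libraries. In captured tissue, fewer cells of a type and less RNA per cell cannot be told apart. Values that rest on Ts 15-140 are given with and without it.

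Genes on the triplicated segments set Ts and 2N CA3 PNs apart, and few others did. A differentially expressed gene (DEG) is one with an unadjusted p under 0.05 in edgeR's quasi-likelihood test, and the log2 fold change (LFC) is Ts relative to 2N. Of 14041 genes tested, 701 (4.99%) were DEGs, with 375 higher (2.67%) and 326 lower (2.32%) in Ts. After Benjamini-Hochberg adjustment over all genes, 35 (0.249%) kept a p under 0.05, of which 33 were higher and 2 lower. The triplicated segments supplied 31 of these, 25 from Mmu16 and 6 from Mmu17. Outside the segments, 633 of 13941 genes were DEGs, 307 higher and 326 lower, where 697 would be 5% of the genes tested. Only 4 of those had an adjusted p under 0.05. That number was 12 with DESeq2, and leaving out single libraries moved it to 2 (without Ts 15-140) or 7 (without 2N 14-125 or 2N 15-336).

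**Figure D1:**
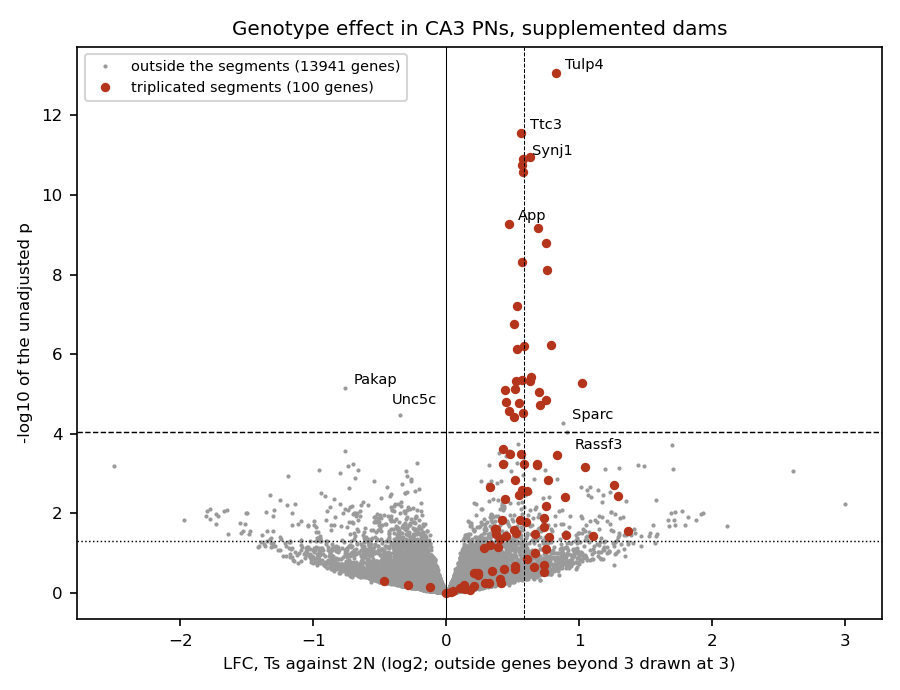
Each point is 1 of the genes tested, with the LFC of Ts relative to 2N CA3 PNs on the x axis (genes beyond 3 are drawn at 3), -log10 of the unadjusted p on the y axis, and genes of the segments in red. The horizontal lines mark an unadjusted p of 0.05 (dotted) and the limit of the adjusted calls (dashed), and the dashed vertical line marks an LFC of 0.585. Most triplicated genes sit to the right of 0 and supply 31 of the 35 genes with an adjusted p under 0.05, while the genes outside the segments (gray) spread to both sides, with 307 higher and 326 lower DEGs.

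The segment lists hold triplicated genes expressed in CA3 PNs, taken by name from the study. All 66 Mmu16 and 25 Mmu17 genes passed the filter on low values. The Mmu16 list runs from 84502276 to 97883698 on chromosome 16 and the Mmu17 list from 3165186 to 9205482 on chromosome 17 (GRCm39). Of the Mmu16 genes, 64 had an LFC above 0 and 49 were DEGs, all of them higher in Ts. Their median LFC was 0.53, a 1.44-fold difference, against a median of 0.0014 over all genes tested. Of the Mmu17 genes, 24 had an LFC above 0 and 16 were DEGs, all higher, with a median LFC of 0.58. The remaining genes of chromosome 16 gave a median LFC of -0.0002 and 14 DEGs among 374, and the remaining genes of chromosome 17 gave 33 among 616. Inside the coordinates of the segments, 9 more genes were tested that the lists leave out. None of the 2 on Mmu16 and 3 of the 7 on Mmu17 were DEGs.

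Each library could be placed by its triplicated genes. The mean log2 CPM over the 66 Mmu16 genes was 4.65 at the lowest, 4.75 at the median and 4.80 at the highest in 2N libraries, and 5.15, 5.23 and 5.28 in Ts libraries. The same 3 values over the 25 Mmu17 genes were 3.97, 4.07 and 4.26 in 2N and 4.56, 4.64 and 4.70 in Ts. The genotypes did not overlap in either list, and every library stood on the side that its label gives. The rest of chromosome 16 overlapped between genotypes, with 4.26 to 4.44 in 2N and 4.37 to 4.45 in Ts. The Mmu16 genes took 1.11% ± 0.0284 (SD, n = 7) of the counts of a Ts library and 0.771% ± 0.0232 (SD, n = 7) of those of a 2N library, which is 1.44 times as much.

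**Figure D2:**
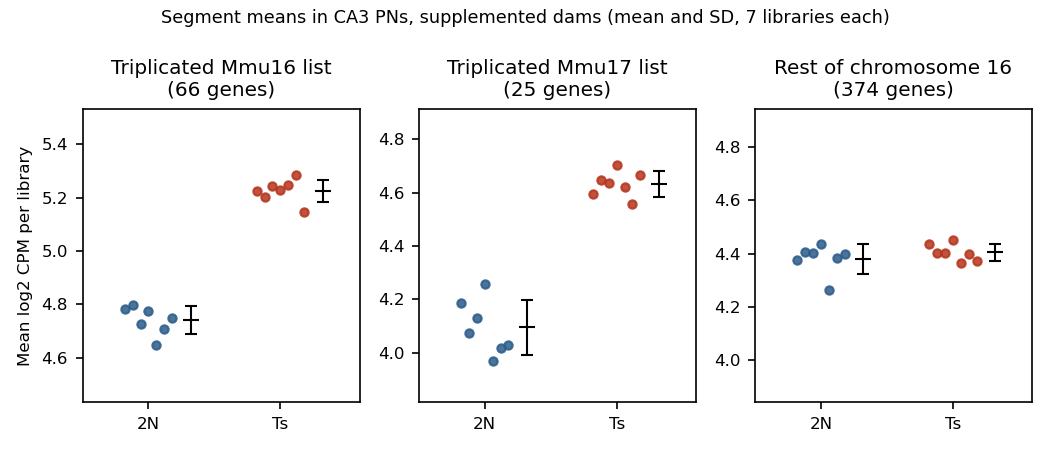
Mean log2 CPM per library (y axis) over the triplicated Mmu16 genes, the triplicated Mmu17 genes and the rest of chromosome 16, with 1 point per mouse and the mean ± SD beside each group. The 7 Ts libraries (5.15 to 5.28) sit above all 7 2N libraries (4.65 to 4.80) for Mmu16 and likewise for Mmu17, and the groups overlap for the rest of the chromosome.

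With 3 copies in place of 2, a level proportional to copy number would be an LFC of 0.585. The 95% interval of the LFC left out 0 and held that value for 47 of 66 Mmu16 and 15 of 25 Mmu17 genes. It held both 0 and 0.585 for 16 and 9 more, where the interval was too wide to tell the values apart. Urb1, a ribosome biogenesis factor, stood above 0.585 with an LFC of 1.02 (0.62 to 1.42), and Tulp4, of the tubby-like protein family, stood above it with 0.83 (0.67 to 0.98). Slc5a3, the sodium and myo-inositol cotransporter, lay between 0 and 0.585 with an LFC of 0.32 (0.12 to 0.52). Pigp, a subunit of the enzyme that starts the glycosylphosphatidylinositol anchor, had an interval with 0 but without 0.585, around an LFC of -0.12. If every gene followed copy number, 5% of such intervals, or 3.3 Mmu16 and 1.25 Mmu17 genes, would still leave out 0.585. The number that did so is near that share, so these genes are not shown to depart from copy number. Urb1 and Pigp were picked after their values were seen.

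Abundance and the call went together among these genes. Called Mmu16 genes, by adjusted p, had a median level of 101.3 CPM in 2N libraries, and the others one of 10.7 CPM. The same medians were 96.5 and 10.2 CPM on Mmu17. Of the genes at 50 CPM or more in 2N libraries, 19 of 23 on Mmu16 and 5 of 6 on Mmu17 were called, and the LFCs of all 23 and all 6 ran from 0.32 to 0.75 and from 0.42 to 0.83. Among the 4 mice of each genotype whose identifier starts with 15, the adjustment was no longer passed by Kcnj6 (adjusted p = 0.450), Cct8 (0.139), Atp5po (0.192), Ifnar1 (0.0819), Dop1b (0.0647), Cbr1 (0.562), Synj2 (0.0518) and Zdhhc14 (0.772), all still higher in Ts. Every Ts library lay above every 2N library for 20 Mmu16 and 7 Mmu17 genes. Over all genes tested, 37 (0.264%) were separated in that way and 2 (0.0142%) in the other direction.

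**Figure D3:**
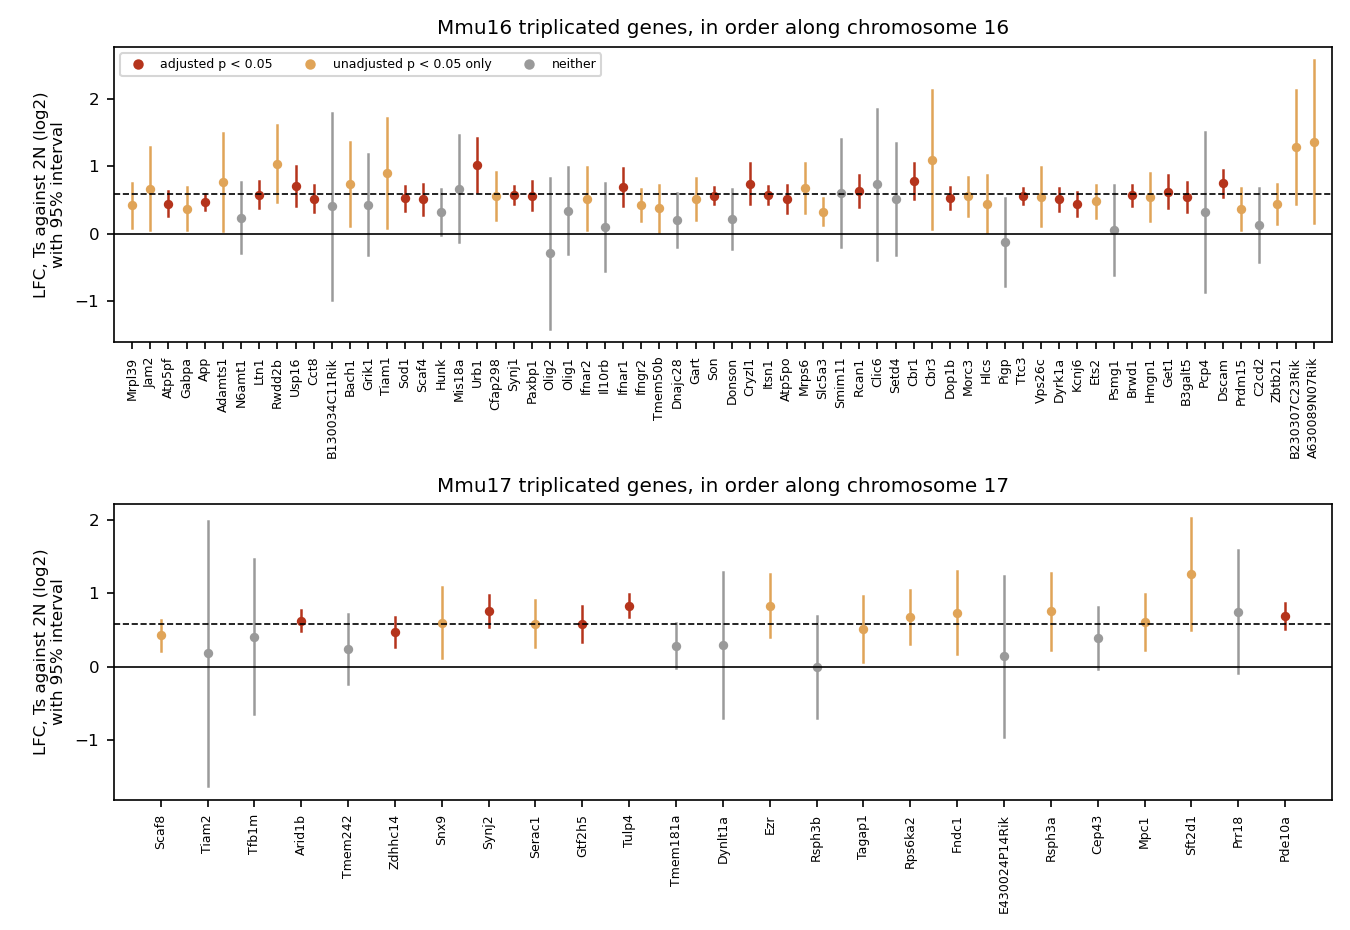
LFC of Ts relative to 2N CA3 PNs with its 95% interval for each triplicated gene in order along Mmu16 (top) and Mmu17 (bottom), with lines at 0 and at 0.585 (dashed), the log2 of 1.5, and colors for the adjusted and unadjusted calls. Most intervals lie above 0 and cross 0.585, with 47 such genes on Mmu16 and 15 on Mmu17, and genes in gray passed neither threshold.

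App, the amyloid precursor protein, had the highest level per length among the named triplicated genes, with a mean of 791.4 TPM (transcript abundance scaled for length) in 2N libraries, followed by Ttc3 with 678.4 TPM and Synj1 with 320.3 TPM. App ran from 1885 over a median of 2022 to 2439 CPM in 2N and from 2649 over 2944 to 3118 CPM in Ts libraries. The groups did not overlap, and App rose with an LFC of 0.47 (SE 0.060, adjusted p = 1.08e-06). The 15 other App homologs and secretase genes held 1 DEG, Aph1b, a γ-secretase component, which was lower without passing the adjustment (LFC -0.53, adjusted p = 0.701). DEGs were 4.54% of all genes outside the segments. Ttc3, an E3 ubiquitin ligase, measured 1263, 1431 and 1689 CPM in 2N and 2086, 2183 and 2249 CPM in Ts libraries at the lowest, median and highest. Its groups were separate too (LFC 0.56, SE 0.059, adjusted p = 1.92e-08).

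Triplicated genes of vesicle recycling stood out among the synaptic genes. Synj1, the phosphoinositide phosphatase synaptojanin that uncoats endocytosed vesicles, ran from 932.9 to 1204 CPM (median 1048) in 2N and from 1435 to 1725 CPM (median 1613) in Ts libraries. Itsn1, the endocytic scaffold intersectin, ran from 279.6 to 312.1 CPM (median 295.9) and from 413.9 to 470.9 CPM (median 445.5). Synj2, the synaptojanin on Mmu17, ran from 79.1 to 114.6 CPM (median 90.0) and from 115.4 to 192.9 CPM (median 148.1). None of the 3 overlapped between genotypes, and all rose, with LFCs of 0.58, 0.58 and 0.75. The other 21 vesicle endocytosis genes tested are not triplicated and held 1 DEG, against 4.54% of all genes outside the segments. That DEG was Dnm3, a neuronal dynamin, with an LFC of -0.34 (adjusted p = 0.287).

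The signaling genes of the segments followed. Dyrk1a, a kinase that phosphorylates NFAT among other substrates, measured 107.0, 120.0 and 130.1 CPM in 2N and 149.7, 170.7 and 186.0 CPM in Ts libraries, with no overlap (LFC 0.51, SE 0.082, adjusted p = 1.91e-04). Rcan1, an inhibitor of calcineurin, measured 39.9, 53.5 and 72.3 CPM in 2N and 62.7, 83.4 and 95.3 CPM in Ts libraries. Its groups overlapped, with 5 of 7 Ts libraries above all 2N libraries, and the difference passed the test (LFC 0.63, SE 0.12, adjusted p = 0.0031). The other 12 calcineurin and NFAT genes held no DEG, where 4.54% of all genes outside the segments were DEGs. Kcnj6, the GIRK2 potassium channel that GABA-B receptors open, rose with an LFC of 0.44 (adjusted p = 0.0046) and separated the groups, at 103.7 to 145.9 CPM in 2N and 149.3 to 193.5 CPM in Ts libraries. Pde10a, a cyclic nucleotide phosphodiesterase on Mmu17, did so as well (LFC 0.69, adjusted p = 1.15e-06). Dscam, an adhesion molecule of neurite self-avoidance, ran from 51.8 to 75.5 CPM in 2N and from 101.3 to 127.5 CPM in Ts libraries (LFC 0.75, adjusted p = 2.54e-06).

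Several genes of nuclear proteins on the segments, and Dop1b, also separated the groups. Son, a splicing cofactor of nuclear speckles, ran from 462.4 to 566.0 CPM in 2N and from 695.9 to 782.5 CPM in Ts libraries (LFC 0.57, adjusted p = 4.93e-08). Brwd1, a chromatin reader, and Dop1b, which acts in endosomal traffic, had LFCs of 0.57 and 0.53. Arid1b, a subunit of the SWI/SNF chromatin remodeler on Mmu17, ran from 254.4 to 305.4 CPM and from 372.0 to 461.0 CPM (LFC 0.63, adjusted p = 4.45e-08). These 4 had separate groups. Tulp4 had the smallest p of all genes tested, at 150.5, 181.2 and 222.2 CPM in 2N and 305.2, 322.7 and 359.8 CPM in Ts libraries (adjusted p = 1.20e-09). Hmgn1, a nucleosome-binding protein, was a DEG with an adjusted p of 0.429 (LFC 0.55), and a single Ts library lay above all 2N libraries.

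The antioxidant list counted 5 DEGs among 24 genes, all higher, against 2.67% of all genes, and 4 of the 5 are triplicated. Sod1, the cytosolic superoxide dismutase, measured 84.6, 100.9 and 117.5 CPM in 2N and 119.1, 145.1 and 175.3 CPM in Ts libraries, and the groups touched nowhere (LFC 0.53, adjusted p = 6.47e-04). Cbr1, a carbonyl reductase, did the same with an LFC of 0.79 (adjusted p = 5.74e-04). Bach1, a repressor of antioxidant genes, and Cbr3 were DEGs with group means under 10 CPM, and Gpx4, which reduces lipid peroxides, was the DEG outside the segments (LFC 0.29, adjusted p = 0.999).

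Among the mitochondrial energy genes, those that passed the adjustment are triplicated. Atp5po and Atp5pf, subunits of the peripheral stalk of ATP synthase, rose with LFCs of 0.52 and 0.45 (adjusted p = 0.0046 and 0.0081), with 5 of 7 Ts libraries above all 2N libraries for each. The other 72 nuclear-encoded OXPHOS genes held 1 DEG, Atp5me (LFC 0.51, adjusted p = 0.695), against 4.54% of all genes outside the segments. The 74 together had a median LFC of -0.029. Of 7 mitochondrially encoded subunits tested, mt-Co1 was a DEG with an LFC of -0.14 (adjusted p = 0.898). Mpc1, a subunit of the mitochondrial pyruvate carrier on Mmu17, was a DEG with an LFC of 0.60 and an adjusted p of 0.393. Cct8, a subunit of the cytosolic chaperonin, ran from 70.9 to 139.9 CPM in 2N and from 152.6 to 202.3 CPM in Ts libraries (LFC 0.52, adjusted p = 0.0034). Tcp1, another subunit of that chaperonin, and Hsp90b1, a chaperone of the endoplasmic reticulum, are not triplicated and were DEGs with LFCs of -0.16 and -0.27 (adjusted p = 0.989 and 0.255).

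The interferon receptor genes of Mmu16 supplied all 3 DEGs among 17 interferon and cytokine genes, against 4.99% of all genes. Ifnar1, a chain of the type I receptor, rose (19.1 to 39.7 CPM in 2N, 40.0 to 59.4 CPM in Ts, LFC 0.70, adjusted p = 0.0049) and just separated the groups. Ifngr2, a chain of the type II receptor, and Ifnar2 had LFCs of 0.43 and 0.52 with adjusted p of 0.149 and 0.926, and Ifngr2 was called without 2N 15-336 (adjusted p = 0.0263). The 13 genes of the list outside the segments held no DEG and had a median LFC of 0.075.

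Several triplicated genes were too low or too variable in CA3 PNs to place. Olig2 and Olig1, transcription factors of the oligodendrocyte lineage, had LFCs of -0.29 (SE 0.56) and 0.35 (SE 0.32). Olig1 was highest in 2N 15-336 (24.6 CPM), the library that also had the highest sum of oligodendrocyte precursor markers (50.5 CPM). Olig1 and Olig2 are themselves among the 6 markers summed, so that sum is not separate from the Olig1 value. The part of oligodendrocyte precursors in these values was not tested. Grik1, a kainate receptor subunit, and Pcp4, a calmodulin regulator, overlapped between genotypes (LFCs 0.43, SE 0.37, and 0.32, SE 0.55). Tiam1, a Rac exchange factor, was a DEG (LFC 0.90, adjusted p = 0.951) with 106.4 CPM in Ts 15-140 and 17.9 to 38.4 CPM in the other Ts libraries, against 11.8 to 39.5 CPM in 2N, and its LFC was 0.53 without that library. Ts 15-140 is the library with the high dentate granule cell markers, and their part in this value was not tested. The extreme LFCs of the lists belonged to genes under 10 CPM in every library, with 1.37 (SE 0.60) for A630089N07Rik on Mmu16, and 1.26 (SE 0.38) for Sft2d1 and -0.0027 (SE 0.34) for Rsph3b on Mmu17.

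Outside the segments, the 4 genes with an adjusted p under 0.05 were Pakap and Unc5c, which fell, and Sparc and Rassf3, which rose. Unc5c, a netrin receptor in axon guidance (chromosome 3, 141170977 to 141540685), measured 252.3, 289.9 and 304.8 CPM in 2N and 197.2, 236.1 and 246.6 CPM in Ts libraries at the lowest, median and highest. No Ts library reached the 2N range, and the LFC was -0.35 (SE 0.075, adjusted p = 0.0144). Dkk3, a secreted protein of the dickkopf family (chromosome 7, 111712904 to 111758760), was the other gene with every Ts library below every 2N library. It ran from 851.9 to 912.5 CPM (median 887.0) in 2N and from 696.7 to 806.7 CPM (median 756.2) in Ts, with an LFC of -0.22 and an adjusted p of 0.149, which DESeq2 put at 1.89e-04 and limma-voom at 0.0281. Unc5c lost its call without Ts 14-90, Ts 15-140 or Ts 15-36 (adjusted p = 0.0633, 0.0732 and 0.0637), and among the 4 mice of each genotype whose identifier starts with 15 (adjusted p = 0.527).

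Pakap, a paralemmin and kinase anchoring protein locus on chromosome 4 (57568179 to 57896982), measured 37.9, 53.9 and 75.4 CPM in 2N and 20.6, 29.9 and 41.1 CPM in Ts libraries. Of the Ts libraries, 5 of 7 lay below all 2N libraries (LFC -0.76, SE 0.15, adjusted p = 0.0045). The annotation gives 2 overlapping genes the same symbol, with LFCs of -0.43 (adjusted p = 0.721) and 0.37 (adjusted p = 0.760), so the division of reads among the 3 is uncertain. The call held without any single library and was lost among mice whose identifier starts with 15 (adjusted p = 0.0819) and with both diets in 1 fit (0.105). Sparc, a matrix glycoprotein known from glia and vessels (chromosome 11, 55285317 to 55314067), measured 10.5, 15.9 and 23.9 CPM in 2N and 21 (lowest), 29.3 and 47.3 CPM in Ts (LFC 0.88, SE 0.20, adjusted p = 0.0226). The groups overlapped, with 4 of 7 Ts libraries above all 2N libraries. Endothelial and mural markers summed to 30.6 to 62.3 CPM in Ts and 42.7 to 58.8 CPM in 2N. Within that list Acta2 was at 0 in all 14 libraries, while Rgs5 had a mean of 10.9 CPM in Ts and 13.7 CPM in 2N. Kdr alone had a higher mean in Ts (4.15 CPM, against 3.39 CPM in 2N). Microglial markers summed to 24.2 to 45.4 CPM in Ts and 22.7 to 55.9 CPM in 2N, and astrocyte markers to 2016 to 2594 CPM and 1662 to 2618 CPM. None of these sums was higher in Ts at both ends of its range, and the part of those cells in the Sparc values was not tested. Rassf3, of the Ras association domain family (chromosome 10, 121244886 to 121312252), ran from 6.92 to 18.4 CPM (median 10.5) in 2N and from 13.4 to 28.7 CPM (median 22.0) in Ts, with an LFC of 0.90 (SE 0.21, adjusted p = 0.0363). Sparc and Rassf3 lost their calls with limma-voom (adjusted p = 0.159 and 0.0879) and with the prefix of the mouse identifier as a term (0.0705 and 0.0555), and Rassf3 also with the log2 library total as a covariate (0.0704). Single libraries ended the call of Sparc when 2N 15-269, 15-296, 16-273 or 16-90 or Ts 15-140, 15-36 or 17-03 was left out (adjusted p from 0.0512 to 0.154), and that of Rassf3 without 2N 15-296, 15-334, 15-336 or 16-273 or Ts 15-199, 15-245, 15-36 or 16-206 (0.0585 to 0.168).

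The next genes by p did not pass the adjustment. Higher DEGs were Shisal1 (LFC 0.54), Spidr, a scaffold of homologous recombination repair (1.69), and Dtna, a dystrobrevin (0.40), with adjusted p from 0.0704 to 0.102. Shisal1 was called without 2N 15-336 (adjusted p = 0.0129) and Spidr without Ts 15-36 (0.0416). Every Ts library lay above every 2N library for Spidr (3.74 to 10.5 CPM against 0 to 3.15 CPM). Spidr lies on chromosome 16 at 15707087 to 15964718, far from the triplicated segment. Lower DEGs were B3gat2, a glucuronyltransferase (LFC -0.76), Cmtm4 (-0.70) and Syt17, a synaptotagmin (-2.50), with adjusted p from 0.0968 to 0.151. The Syt17 difference leaned on 2N 15-296, at 17.3 CPM where the other 2N libraries had at most 5.50 CPM and the Ts libraries at most 1.79 CPM. It was called without 2N 14-125 (adjusted p = 0.0447), and B3gat2 without 2N 15-296 (0.0336) or 2N 16-273 (0.0111).

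**Figure D4:**
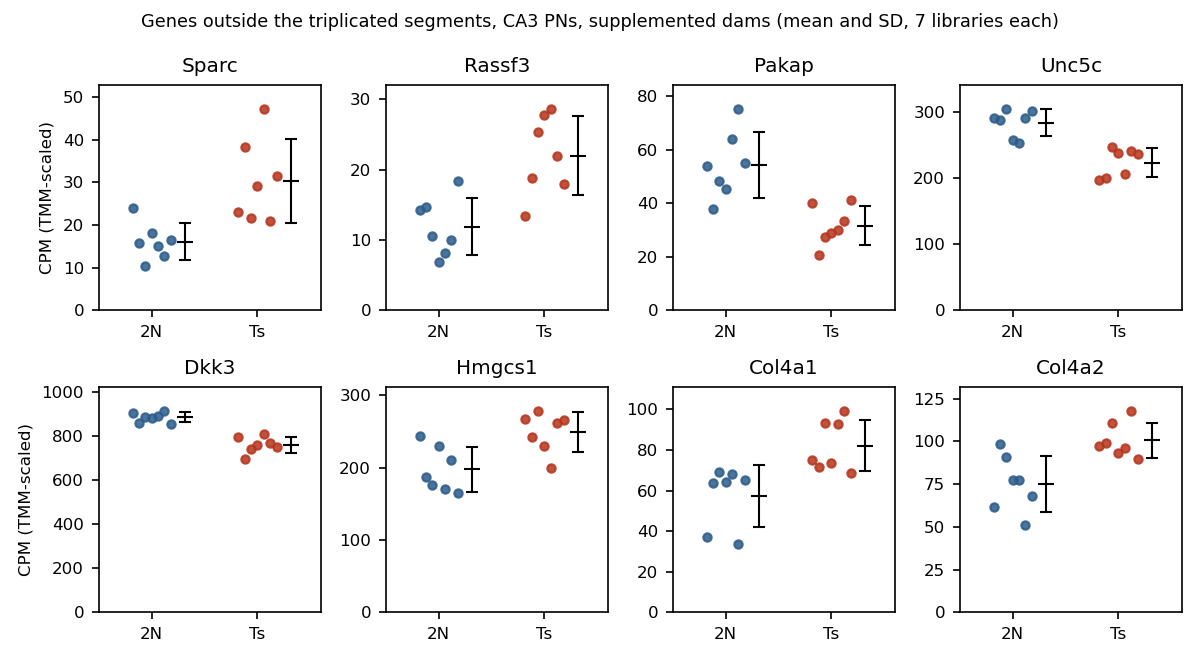
CPM per library (y axis from 0) of 8 genes outside the triplicated segments, with 1 point per mouse and the mean ± SD beside each group of 7. Unc5c and Dkk3 have groups that do not overlap, with Ts below 2N, while Pakap (lower) and Sparc, Rassf3, Hmgcs1, Col4a1 and Col4a2 (higher) overlap in part.

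Gene lists for the functions of CA3 PNs were then counted. Across 36 lists, 794 distinct genes outside the segments were tested, of which 50 were DEGs, 24 higher and 26 lower. That is 6.30%, against 4.54% of all genes tested outside the segments and 4.99% of all genes. Shares of all genes given below include the triplicated ones. Outside the segments, 307 of 13941 genes were higher DEGs and 326 were lower ones. Of the 794 list genes, Unc5c alone passed the adjustment, and their median LFC was 0.0039. The DEGs named below therefore rest on unadjusted p-values.

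Channel genes had their DEGs on the lower side. Of 22 voltage-gated potassium channel genes, 4 were DEGs and all 4 were lower, against 2.32% of all genes, and the median LFC was -0.11. Kcna2, the delayed rectifier Kv1.2, ran from 325.4 to 389.3 CPM (median 369.6) in 2N and from 263.9 to 350.8 CPM (median 313.0) in Ts, with 5 of 7 Ts libraries below all 2N libraries (LFC -0.24, adjusted p = 0.393). Kcnc1, which serves fast spiking, had an LFC of -0.18 (adjusted p = 0.816). The list held 2 lower DEGs without 2N 15-334, and 2 without Ts 15-140. Of 23 voltage-gated calcium and sodium channel genes, 3 were DEGs and lower, namely Scn1a (LFC -0.30, adjusted p = 0.218), Cacna1g (-0.64, 0.581) and Scn2b (-0.18, 0.697). There were 5 without 2N 15-336, in which the T-type channel gene Cacna1g reached 35.5 CPM against 13.2 to 19.1 CPM in the other 2N libraries. Scn1a and Kcnc1 are also prominent in inhibitory neurons, whose 9 markers summed to a median of 186.2 CPM in Ts (127.5 to 232.3) and 215.2 CPM in 2N (154.7 to 354.6). Their part in the channel values was not tested.

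Receptor genes held few DEGs, as did all genes (4.99%). None of 17 AMPA receptor genes, 6 NMDA receptor subunits, 7 kainate receptor subunits and 11 GABA-A receptor subunits was a DEG, with median LFCs between -0.075 and -0.0024. Gria2, the AMPA receptor subunit that limits calcium entry, ran from 900.2 to 1460 CPM in 2N and from 997.9 to 1207 CPM in Ts (LFC -0.037, SE 0.072). Grm4, a presynaptic metabotropic glutamate receptor, was a DEG at 5.77 to 16.4 CPM in 2N and 3.74 to 7.52 CPM in Ts (LFC -0.67, adjusted p = 0.870). Of 32 vesicle release genes 4 were DEGs, with Rims2, Vamp2 and Cplx2 higher (LFCs 0.25, 0.14 and 0.12, adjusted p = 0.818, 0.982 and 0.999) and Syp, synaptophysin, lower (LFC -0.19, adjusted p = 0.556). Kctd16, a subunit of GABA-B receptors, was a DEG with an LFC of 0.33 (adjusted p = 0.801).

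The lists nearest to choline held few DEGs, as did all genes (4.99%), and no gene of them passed the adjustment. Lists this short would hold few DEGs at the share of all genes. None of 19 genes of choline transport and phosphatidylcholine synthesis, 9 acetylcholine receptor and acetylcholinesterase genes and 19 DNA methylation genes was a DEG, with median LFCs of -0.045, -0.023 and -0.010. Among 24 genes of one-carbon metabolism, Gart, a purine synthesis enzyme on Mmu16, was the single DEG (LFC 0.52, adjusted p = 0.254). Of 8 neurotrophin and receptor genes, Ntrk3, the neurotrophin-3 receptor, was a DEG (LFC 0.15, adjusted p = 0.953).

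Cholesterol genes leaned upward. Of 37 tested, 4 were DEGs and all were higher, against 2.67% of all genes, with a median LFC of 0.058. Hmgcs1, which makes HMG-CoA at the head of the mevalonate pathway (chromosome 13, 120151915 to 120170470), ran from 165.2 to 244.1 CPM (median 187.1) in 2N and from 199.3 to 278.6 CPM (median 261.9) in Ts. The groups overlapped, with 4 of 7 Ts libraries above all 2N libraries (LFC 0.32, SE 0.088, adjusted p = 0.15). Hmgcs1 was called without 2N 14-125 (adjusted p = 0.0417) or Ts 15-36 (0.0353). Fdft1, squalene synthase, and Srebf2, the transcription factor of the pathway, had LFCs of 0.34 and 0.18 (adjusted p = 0.760 and 0.797). Among mice whose identifier starts with 15 there was 1 DEG in the list. The 250 bases before the Hmgcs1 start are shown because the pathway's genes are classic targets of Srebf2, with the core of a sterol regulatory element, CACCCCAC, in capitals (RefSeq, GRCm38.p6, chr13:119690101-119690350, plus strand).
Hmgcs1: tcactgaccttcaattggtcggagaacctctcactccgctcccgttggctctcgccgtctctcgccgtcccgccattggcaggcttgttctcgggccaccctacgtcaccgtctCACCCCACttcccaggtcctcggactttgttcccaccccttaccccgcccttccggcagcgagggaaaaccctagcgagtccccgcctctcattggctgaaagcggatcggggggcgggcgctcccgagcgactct
The motif began 136 bases before the start. It was searched on both strands in the windows of 250 bases before to 50 after each start, where 942 of 32851 windows (2.87%) held it, among them 1 of the 27 cholesterol genes with a window. It was chosen after the sequence was seen, and the match is a description of these letters.

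Type IV collagen genes were the DEGs of the collagen list, 2 of 10 tested and both higher, against 2.67% of all genes. Col4a1 and Col4a2, whose products wind together in basement membranes, lie head to head on chromosome 8 and share their start region, of which the first 22 bases common to both RefSeq transcripts are shown (GRCm38.p6, chr8:11312805-11312826, plus strand).
Col4a1 and Col4a2: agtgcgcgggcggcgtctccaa
Col4a1 ran from 33.6 to 69.2 CPM (median 64.2) in 2N and from 68.5 to 99.2 CPM (median 75.2) in Ts libraries, with 6 of 7 Ts libraries above all 2N libraries (LFC 0.53, SE 0.14, adjusted p = 0.149). Col4a2 ran from 50.9 to 98.4 CPM (median 77.4) and from 89.6 to 117.9 CPM (median 97.5), with more overlap (LFC 0.42, SE 0.11, adjusted p = 0.15, and 0.0351 without 2N 15-269). Mean log2 CPM of the endothelial and mural markers was 0.157 lower in Ts (exact permutation test, two-sided, unadjusted p = 0.241), and its part in the collagen values was not tested.

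Immediate early genes had the largest median LFC of the lists that hold no triplicated gene, at 0.18 over 24 genes, of which 18 were above 0. Egr4, a transcription factor induced by activity, ran from 11 to 31.4 CPM (median 12.6) in 2N and from 17.9 to 35.8 CPM (median 23.7) in Ts (LFC 0.74, SE 0.21, adjusted p = 0.172). Both high values stood alone, 2N 15-336 in its group and Ts 15-140 in the other, and Egr4 was called without 2N 15-336 (LFC 0.92, adjusted p = 0.0081) and had an LFC of 0.64 (adjusted p = 0.495) without Ts 15-140. Jund and Egr2 were the other DEGs (LFCs 0.33 and 1.31, adjusted p = 0.700 and 0.716). The list thus held 3 DEGs of 24, all higher, against 2.67% of all genes. The 3 DEGs became 5 without 2N 16-273 and 6 without Ts 14-90, and they were 7 among mice whose identifier starts with 15. Higher DEGs over all genes in these fits were 408 of 13697, 364 of 13653 and 383 of 14170.

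Imprinted genes had 3 DEGs of 31, all lower, against 2.32% of all genes. Peg3, a paternally expressed zinc finger gene, ran from 571.3 to 637.1 CPM (median 600.6) in 2N and from 455.1 to 578.8 CPM (median 537.9) in Ts, with 6 of 7 Ts libraries below all 2N libraries (LFC -0.21, adjusted p = 0.352). Meg3, a maternally expressed long noncoding RNA, and Nap1l5 had LFCs of -0.30 and -0.28 (adjusted p = 0.722 and 0.953). Of 79 cytosolic ribosomal protein genes, 4 were higher and 2 lower as DEGs, against 2.67% and 2.32% of all genes. Rpl7a led the higher ones (LFC 0.45, adjusted p = 0.149), and reads of this family can be shared with processed pseudogenes. Of 34 Wnt and planar polarity genes, Dkk3 and Celsr2 were the DEGs, both lower (adjusted p = 0.149 and 0.801), against 2.32% of all genes. Endosomal Vps26c and Snx9 are triplicated and were higher DEGs (LFCs 0.55 and 0.60, adjusted p = 0.738 and 0.762), and Snx27, which works with retromer outside the segments, was a lower DEG (LFC -0.27, adjusted p = 0.722). Of 37 autophagy and lysosome genes, Atp6v1b2, a subunit of the proton pump, was higher (LFC 0.21, adjusted p = 0.556) and Gabarap lower (LFC -0.29, adjusted p = 0.951) as DEGs, against 4.99% of all genes.

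The genotype effect was set beside that of CA3 PNs from normal-diet dams, 6 Ts and 5 2N libraries of other mice, whose identifier prefixes differ in part from those of the supplemented diet. On the normal diet 1088 of 12740 genes tested (8.54%) were DEGs and 76 passed the adjustment, of which 40 lie outside the segments. On the supplemented diet 9 of these 40 (22.5%) were DEGs in the same direction, none in the opposite one, and none passed the adjustment. DEGs in either direction were 4.54% of the genes tested outside the segments and 4.99% of all genes. The count of 9 became 15 without 2N 15-296. The direction matched for 33 of the 40. Their median size was an LFC of 0.74 on the normal diet, which chose them, and 0.24 in that direction on the supplemented diet. The 9 were Col4a2, Col4a1, Hmgcs1, Fdft1, Igsf21 and Ostf1, higher on both diets, and Slc30a3, the zinc transporter of synaptic vesicles, Nap1l5 and Ddn, a postsynaptic protein, lower on both. Of 35 triplicated genes called on the normal diet, all 35 were DEGs in the same direction on the supplemented diet and 28 were called, with median LFCs of 0.60 and 0.56. Igsf21, Ostf1, Slc30a3 and Ddn were picked after their values were seen.

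Col4a2, Col4a1 and Hmgcs1 had the smallest p outside the segments on the normal diet and were higher DEGs on both diets. Several other genes that lead the normal-diet comparison were not DEGs on the supplemented diet, and their groups overlapped. Tenm3, a teneurin of synaptic partner matching with an LFC of 0.95 on the normal diet, ran from 16.4 to 47.7 CPM in 2N and from 20.9 to 42.1 CPM in Ts (LFC 0.23, SE 0.16). Arhgef10l, a guanine nucleotide exchange factor, and Rph3a, rabphilin, had LFCs of -0.41 (SE 0.53) and -0.12 (SE 0.14), against -1.95 and -0.47. Nsg2, a neuronal vesicle protein, had -0.00065 (SE 0.081), against 0.47. The difference between the diets was tested in 1 fit of 25 CA3 libraries and passed the adjustment for none of 16435 genes, with 739 (4.50%) at an unadjusted p under 0.05 in edgeR and likewise none called by limma-voom. Without 2N 15-336 there was 1 gene, Egr4, which had the smallest p of the difference with all libraries (1.2, SE 0.29, adjusted p = 0.667). The difference for Nsg2 was -0.46 (SE 0.12, adjusted p = 0.999), and the median difference over the Mmu16 genes was -0.043.

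**Figure D5:**
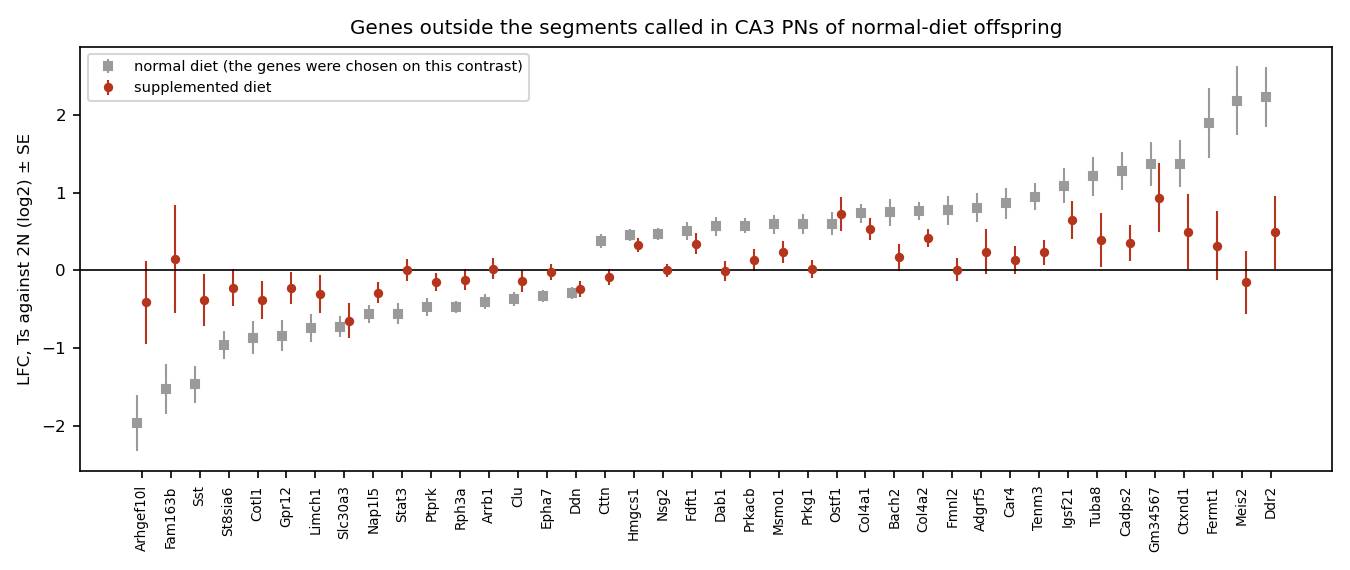
LFC of Ts relative to 2N with its SE (y axis) for the 40 genes outside the segments called on the normal diet, ordered by the normal-diet value (gray squares), with the supplemented-diet value beside it (red points). The normal-diet values chose the genes and have a median size of 0.74, and the supplemented values have a median of 0.24 in the same direction, with 33 of 40 on the same side of 0.

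The genotype effect of CA3 PNs was also compared with that of CA1 PNs and DGCs of supplemented dams. The difference between CA3 PNs and CA1 PNs passed the adjustment for none of 16937 genes, with 543 (3.21%) at an unadjusted p under 0.05. The difference between CA3 PNs and DGCs passed it for none of 16899, with 879 (5.20%). The Mmu16 genes had median differences of 0.010 and -0.020. Ppp1r26, a regulatory subunit of protein phosphatase 1, had the smallest p of the first among genes that also passed the filter in CA3 PNs alone, with an LFC of -0.04 (SE 0.17) in CA3 PNs and 1.22 (SE 0.26) in CA1 PNs (adjusted p of the difference = 1). Arhgap10, a GTPase-activating protein, had the smallest p of the second, with LFCs of 1.47 (SE 0.34) in CA3 PNs and -0.48 (SE 0.25) in DGCs (adjusted p = 0.216). Within CA3 PNs alone, Arhgap10 was called without 2N 16-273 (adjusted p = 0.048).

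The same 14 mice gave all 3 populations, so the difference was also fitted on their 28 libraries of each pair of populations with the mouse as a replicate block, which leaves out 2 Ts libraries of mice with no CA3 library. It then passed the adjustment for 12 genes between CA3 PNs and DGCs, of which 7 had the lower effect in CA3 PNs and 5 the higher one, and for none between CA3 PNs and CA1 PNs (475 of 16614 at an unadjusted p under 0.05). On the same 28 libraries without the block, a fit added after seeing the data, none of 16682 genes passed it between CA3 PNs and DGCs, with 850 at an unadjusted p under 0.05. Gad2, the GABA-synthesizing enzyme, led them. It was 46.0 ± 8.17 CPM in Ts and 55.2 ± 17.1 CPM in 2N CA3 PNs (SD, n = 7 each), and 64.0 ± 15.2 CPM (SD, n = 9) in Ts and 29.7 ± 12.9 CPM (SD, n = 7) in 2N DGCs. The block fit put the difference of the genotype effect at -1.29 (adjusted p = 3.70e-06). Cnr1, the cannabinoid receptor of presynaptic terminals, shared its direction, with -0.96 (adjusted p = 6.04e-05). The CA3 PN effects of Gad2 and Cnr1 were -0.21 (SE 0.20) and 0.015 (SE 0.15), and those of DGCs 1.01 (SE 0.22) and 1.03 (SE 0.19). Inhibitory neuron markers summed to 243.3 to 357.5 CPM in Ts and 187.0 to 268.1 CPM in 2N DGCs, and to 138.4 to 255.3 CPM and 168.6 to 388.6 CPM in CA3 PNs. Gad2 is itself among the markers summed, so these sums are not separate from its values. These CPM, those of Gad2 among them, were scaled over all 30 CA3 and DGC libraries together and so differ from CPM scaled within CA3 PNs. The part of inhibitory neurons in the difference was not tested. Gad2 and Cnr1 were picked after their values were seen.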

How the data were processed

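RNA of CA3 PNs was measured in 14 libraries of single mice of supplemented dams (7 Ts, 7 2N), with 11 normal-diet CA3, 16 CA1 and 16 dentate gyrus libraries for comparison. Per the labels and methods, the authors checked reads with FastQC 0.11.9, trimmed them with Trimmomatic 0.39 where adapters called for it, aligned them to GRCm39 with STAR, and took measures of the alignments with Picard 2.26.2 and gene counts with RSEM. The deposited expected counts are not normalized. They were rounded to whole numbers (0.751% of values were not whole). The deposited TPM, scaled by the authors with RSEM for transcript length, were used only to compare levels between genes. Counts of repeated sequences are divided among genes by RSEM, so overlapping genes and genes with close copies are less certain.

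Groups follow the labels, and 1 CA3 library with conflicting labels was left out. The libraries and lists were chosen with earlier results of these data known. A gene entered a test when 10 or more of its libraries exceeded 0.1 CPM, and edgeR 4.0.16 in R 4.3.3 was used (TMM, glmQLFit with robust estimation, two-sided glmQLFTest), with Benjamini-Hochberg adjustment over all genes tested. The study's technical covariates were not used here. CPM use TMM totals, and mean log2 CPM a prior count of 2. Differences of a marker list were tested by exact permutation over 3432 splits, whose smallest p is 5.83e-04. Alternatives were DESeq2 1.42.0, limma-voom (limma 3.58.1), a surrogate variable (sva 3.50.0), other filters and totals, terms for library total and mouse identifier prefix, and leaving out each library. Totals of 710825 to 2559182 make 0.1 CPM 0.071 to 0.256 of a count.

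Symbols came from GENCODE vM39 for 56310 of 57010 identifiers. Named genes are, outside the segments, the 6 higher and 6 lower with the smallest p, triplicated genes set by symbol and those with the largest and smallest LFC, up to 4 called genes or otherwise up to 2 DEGs of each list by p (any further DEGs of a list were added after their values were seen, and some genes that the rule names are not reported here), genes leading the normal-diet comparison or named by the study, and the 5 with the smallest p of each difference. Of the last, 6 did not pass the filter in CA3 PNs. The mouse pairs libraries of different populations, since the same 14 mice gave them. Correlations of their deviations ran from 0.0227 to 0.115 between CA3 PNs and CA1 PNs and from 0.0251 to 0.107 between CA3 PNs and DGCs. Ts and 2N libraries within a population are not paired. The models were tested on simulated data with known changes.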

Additional observations from a re-analysis of the deposited data

Results flagged for a closer look

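In 15 of 196 groups of 7 libraries checked, 1 library stood apart by Dixon's criterion (the gap to its nearest neighbor as a share of the range), where chance gives about 1 in 20, or 9.8. Ts 15-140 stood high for the dentate granule cell markers (153.8 CPM summed, against 25.3 to 44.3 in the other Ts libraries), Tiam1 (106.4 CPM), Tiam2 (21.5 CPM) and Egr4 (35.8 CPM). Among the 2N libraries, 15-336, which has the lowest total count, stood high for the oligodendrocyte precursor markers (50.5 CPM summed, against 22.6 to 30.3), Olig1 (24.6 CPM), Cacna1g (35.5 CPM), Egr4 (31.4 CPM) and Celsr2 (797.9 CPM), and low for Vps26c (2.73 CPM). Olig1 is itself among the markers in that sum, so the flags for Olig1 and for the sum are not separate. Syt17 was high in 2N 15-296 (17.3 CPM). Tenm3 was low in Ts 15-199 (20.9 CPM) and Gria2 low in Ts 15-36 (997.9 CPM, against 1129 to 1207). Choroid plexus markers were high in Ts 14-90 (18.6 CPM summed), and red blood cell markers were above 0 in Ts 15-245 only (0.396 CPM summed).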

How the results depend on the processing

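No named gene that was called with the main settings or with an alternative had opposite directions in the 2. Genes called in neither were not counted for direction, and Nsg2 moved from an LFC of -0.00065 to 0.0028 with both diets in 1 fit. The split of DEGs, 375 higher and 326 lower, became 365 and 367 without 2N 16-90 and 383 and 385 among mice whose identifier starts with 15. Of 863 values of 89 named genes under other settings, 823 kept their side of the threshold, 17 lost a call and 23 gained one, and of 1246 values with a library left out 1215 kept theirs, 20 lost a call and 11 gained one. Among mice whose identifier starts with 15, 10 named genes lost a call, 8 of them triplicated, with adjusted p from 0.0518 to 0.772, and Zdhhc14 also lost its call without 2N 16-90 or Ts 15-245 (0.0512 and 0.0573). The 35 genes with an adjusted p under 0.05 became 66 with no filter on low counts and 21 among mice whose identifier starts with 15, where fewer samples enter, and 32 to 40 with a library left out. DEGs were 1593 with no filter, which tests more genes, and 637 to 767 with a library left out. The count outside the segments, 4, was 12 with DESeq2, 30 with no filter, 9 with 1 surrogate variable, 7 with both diets in 1 fit, and 2 to 7 with a library left out. DESeq2 gave no adjusted p for 6533 genes. With a library left out, Mmu16 DEGs ran from 43 to 51, Mmu17 DEGs from 15 to 18, list DEGs from 18 to 30 higher and 23 to 34 lower, and the Mmu16 mean difference from 0.470 to 0.498. Marker differences, Ts minus 2N in mean log2 CPM, ran on both sides of 0 for dentate granule cells (-0.102 to 0.340, the lowest without Ts 15-140) and inhibitory neurons (-0.113 to 0.0839), and from 0.0669 to 0.113 for CA3 PNs, whose unadjusted permutation p passed 0.05 in 10 of 14. The difference between diets was called for 0 to 1 genes, that from CA1 PNs for 0, and that from DGCs for 0 to 2, with 8 under no filter. With the mouse as a replicate block the difference from DGCs was called for 12 genes and that from CA1 PNs for 0, and on the same 28 libraries without the block for 0 in both. The 9 genes shared with the normal diet became 7 to 15 with a library left out, and 71 of 1013 when the normal-diet call was an unadjusted p under 0.05. Leaving out libraries for the lists, the markers and the genes shared between diets, the alternatives for the count outside the segments, and the fit on the 28 libraries without the block, were chosen after seeing the data. Where no cause is stated, the cause was not tested. Some genes of a few CPM had intervals that held both no difference and a 1.5-fold one, such as Grik1 (LFC -0.32 to 1.19). Others, such as Sft2d1 (0.49 to 2.02), had intervals that left out 0. The part of library depth in these widths was not tested.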

Other observations

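The CA3 PN library of mouse 15-145, of a normal-diet dam, has labels that conflict with those of the other libraries of that mouse and entered no comparison. Its mean log2 CPM over the 66 triplicated Mmu16 genes was 4.87, where the normal-diet Ts libraries had 5.22 to 5.32 and the 2N libraries 4.61 to 4.79.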
